A study of Mus musculus with 2 samples.

Results

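The stefin A family of the mouse was followed through single-cell RNA-seq of *MLL-AF9* acute myeloid leukemia. The 6 members, *Stfa1*, *Stfa2*, *Stfa3*, *Stfa2l1*, *BC100530* and *Gm5483*, were found by gene symbol among the 27998 genes of the count matrix, and their counts were taken in all 8309 deposited cells. The members had been chosen because their levels differed between the libraries, so the differences between libraries are given as descriptions with no test. Mouse *MLL-AF9* leukemias arise from lineage-depleted bone marrow cells that receive the fusion oncogene by retrovirus and are transplanted into lethally irradiated mice. All donors were *Kat2a* Flox/Flox and received pIpC, an inducer of interferon, 4 to 6 weeks before marrow was taken. *Kat2a* WT donors were Mx1-Cre -/- and *Kat2a* KO donors were Mx1-Cre+/-, a recombinase driven by an interferon-responsive promoter that is active in many cell types. Terminal leukemias, 5 *Kat2a* WT and 4 *Kat2a* KO, were frozen, thawed and pooled by genotype, and live cells positive for the YFP reporter of the oncogene were sorted for 10x Genomics 3′ libraries. There was therefore 1 library per genotype, no label for the individual leukemias within a pool and no replicate check. All intervals are 95% intervals and cover counting error only.

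Stefins are small cytosolic inhibitors that block papain-like cysteine proteases such as the cathepsins, and they lack the signal peptide that sends most other cystatins out of the cell. The stefin A genes of the mouse form a cluster of close copies, whereas stefin B is encoded by *Cstb*. *Stfa1*, *Stfa2* and *Stfa3* are the named stefin A genes, and *Stfa2l1*, *BC100530* and *Gm5483* are stefin-like genes of the same cluster. Members of the cluster are known as transcripts of maturing neutrophils, the cells that also make secondary granule proteins such as lactoferrin and lipocalin 2.

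In GENCODE M21 (GRCm38) the 6 members lay within 298.6 kb of chromosome 16, from 36156811 to 36455392. *Stfa2l1* (ENSMUSG00000059657), *Gm5483* (ENSMUSG00000079597) and *Stfa1* (ENSMUSG00000071562) lay on the plus strand, and *BC100530* (ENSMUSG00000071561), *Stfa2* (ENSMUSG00000022902) and *Stfa3* (ENSMUSG00000054905) on the minus strand. Each transcript had 3 exons. RefSeq names *Gm5483* *Cstdc4* and *BC100530* *Cstdc5*, and its promoter table matched all 6 members. Over the 15 pairs of members, aligned transcripts were 75.4% to 97.1% identical, with a median of 81.2%. The closest pair was *Stfa1* and *BC100530*, at 97.1% identity and with a shared run of 128 bases. The next was *Stfa2* and *Stfa2l1*, at 95.7% identity and with a shared run of 97 bases. Within the last 150 bases of the transcripts, the longest shared runs of these pairs were 58 and 63 bases. Reads that fall wholly in shared runs cannot be given to 1 gene, so the counts of these members and their split within pairs are uncertain. The effect on the sum over the family was not tested.

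The promoters were close copies as well, at 71.1% to 96.4% identity. The windows below run from 80 bases before the RefSeq start site (GRCm38.p6) through the first 20 bases of the transcript, on the strand of the gene. They are shown because 1 run of 13 bases, in capitals, stood in all 6 of them.
BC100530: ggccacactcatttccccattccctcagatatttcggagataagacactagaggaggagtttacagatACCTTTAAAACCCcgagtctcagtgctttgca
Stfa1: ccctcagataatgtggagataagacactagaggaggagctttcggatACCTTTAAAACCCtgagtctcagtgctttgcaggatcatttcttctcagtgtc
Gm5483: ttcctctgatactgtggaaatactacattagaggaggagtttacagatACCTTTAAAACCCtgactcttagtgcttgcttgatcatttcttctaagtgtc
Stfa2l1: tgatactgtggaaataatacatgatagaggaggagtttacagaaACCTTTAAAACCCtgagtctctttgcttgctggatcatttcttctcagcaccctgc
Stfa2: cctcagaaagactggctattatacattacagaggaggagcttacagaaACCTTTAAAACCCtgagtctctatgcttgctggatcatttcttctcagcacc
Stfa3: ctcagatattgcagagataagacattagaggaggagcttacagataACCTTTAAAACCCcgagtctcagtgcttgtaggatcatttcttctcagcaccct
These windows lie at chr16:36367551-36367650 (minus strand) for *BC100530*, chr16:36277068-36277167 (plus) for *Stfa1*, chr16:36184132-36184231 (plus) for *Gm5483*, chr16:36156731-36156830 (plus) for *Stfa2l1*, chr16:36408344-36408443 (minus) for *Stfa2* and chr16:36455373-36455472 (minus) for *Stfa3*. The capitals mark ACCTTTAAAACCC, searched on both strands of the 300-base promoters. It began 32 to 36 bases before the start site in 5 members and 12 bases before it in *BC100530*. Of 27025 promoters, 8 held it (0.0296%), and the other 2 belonged to *Csta3* and *Gm7260*, also on chromosome 16. A second run of the same length, GATCATTTCTTCT, began between 4 bases before and 21 bases after the start site of all 6 members and was in 0.0333% of promoters. TATAAA, the core of the TATA box, was in none of the 6 windows of 300 bases, against 14.2% of promoters. TTTAAAAC lies wholly within the first run, so its presence in 6 of 6 members follows from that run. It was in 1.66% of promoters. TTGCNNAA, a form of the site read by C/EBP factors, was in 2 of 6 members and in 10.8% of promoters. A match of letters is a description and not a bound site.

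The library labelled WT held 4069 cells and 11892536 UMIs (unique molecular identifiers, a count of captured transcripts), and the KO-labelled library held 4240 cells and 8585416 UMIs. The median depth was 2502 UMIs per cell against 1674, and 203 and 695 cells had fewer than 500 detected genes. A total of 28 barcode sequences occurred in both libraries. *Kat2a* went against the labels, with 142 UMIs (11.9 per 1e6 UMIs, or CPM) in the WT-labelled library and 775 (90.3 CPM) in the KO-labelled library. The last exon, nearest the 3′ end that the assay reads, is kept in the excised transcript, so a loss need not show. The cause of the higher level in the KO-labelled library was not tested. Were the labels of the libraries swapped, the directions between libraries given here would reverse. Granulocyte genes dominated both libraries. The 6 secondary granule markers summed to 46970 and 54490 CPM, the 5 primary granule markers to 14470 and 12250 CPM, and a UMI of the progenitor list (*Hoxa9*, *Meis1*, *Kit*, *Cd34*, *Flt3*) was found in 43.8% and 32.0% of cells. *Cd3e*, a defining T cell gene, had 3 and 2 UMIs. The B cell list summed to 53.1 and 74.8 CPM, nearly all *Cd79b*, and the T or NK cell list to 193.7 and 299.9 CPM, nearly all *Nkg7*. The 6 erythroid markers summed to 204.0 and 870.7 CPM and the 3 platelet or megakaryocyte markers to 8.91 and 97.1 CPM. Both lists were higher in the KO-labelled library. Of cells with at least 1000 UMIs, 99.5% and 97.5% had no thinned erythroid UMI, and 99.8% and 98.9% no platelet UMI. The log2 ratio of the stefin A sum in those cells was -1.19 and -1.18, but so few cells were left out that it could hardly move. The part of either list in the difference was not tested.

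The family was abundant and was lower in the KO-labelled library. Its members together gave 60635 UMIs in the WT-labelled library, which was 1 in 196 of all UMIs (0.510%), and 19175 UMIs in the KO-labelled library, or 1 in 448 (0.223%). The summed level was 5099 CPM (5058 to 5139) against 2233 CPM (2202 to 2265), a log2 ratio of KO over WT of -1.19 (-1.21 to -1.17), or 2.28-fold. Counts of captured 3′ ends do not scale with transcript length, so levels in CPM are compared below between members as well as between libraries.

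*BC100530* and *Stfa1*, the close pair, led the family. *BC100530* had 33675 UMIs (2832 CPM, 2801 to 2862) in the WT-labelled library and 10768 (1254 CPM, 1231 to 1278) in the KO-labelled library, a log2 ratio of -1.17 (-1.21 to -1.14). *Stfa1* had 13766 UMIs (1158 CPM, 1138 to 1177) and 4577 (533 CPM, 518 to 549), so that its log2 ratio was -1.12 (-1.17 to -1.07). The levels of both members were thus higher in the WT-labelled library by more than the counting intervals. *Gm5483* came next in both libraries. Its counts were 9044 UMIs (760.5 CPM, 745 to 776) and 2443 (285 CPM, 273 to 296), which gave a log2 ratio of -1.42 (-1.48 to -1.35).

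The other 3 members were an order of magnitude or more below *BC100530*. *Stfa2l1* had 2253 UMIs (189 CPM, 182 to 197) in the WT-labelled library and 673 (78.4 CPM, 72.6 to 84.5) in the KO-labelled library, a log2 ratio of -1.27 (-1.40 to -1.15). The counts of *Stfa2* were 958 (80.6 CPM, 75.5 to 85.8) and 281 (32.7 CPM, 29.0 to 36.8), with a log2 ratio of -1.30 (-1.50 to -1.11). Those of *Stfa3* were 939 (79.0 CPM, 74.0 to 84.2) and 433 (50.4 CPM, 45.8 to 55.4), with a smaller log2 ratio of -0.65 (-0.81 to -0.48). *Stfa2* and *Stfa3* did not differ in level beyond their intervals in the WT-labelled library, whereas *Stfa3* lay above *Stfa2* in the KO-labelled library. The order from *BC100530* down to *Stfa2l1* was the same in both libraries. The difference of *Stfa3* depended on the cells used. In cells with 1000 or more detected genes its log2 ratio was 0.068 (-0.24 to 0.37). These were 2103 cells in the WT-labelled library and 1054 in the KO-labelled library, and the other 5 members ran from -1.18 to -0.72 in them. At equal depth the log2 ratio of *Stfa3* was -0.99 thinned to 1000 UMIs, -1.18 thinned to 500 and -1.05 matched on total UMIs. For *Stfa2*, matching the libraries on total UMIs per cell moved the log2 ratio to -2.09.

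All 6 members were at least 1.5-fold lower in the KO-labelled library, where 7.75% of 6333 genes with at least 200 UMIs were, and 5 of 6 were at least 2-fold lower, where 2.15% of genes were. These counts follow from how the members were chosen. The median log2 ratio was -1.22 over the 6 members and 0.0054 over the 6333 genes.

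**Figure D1:**
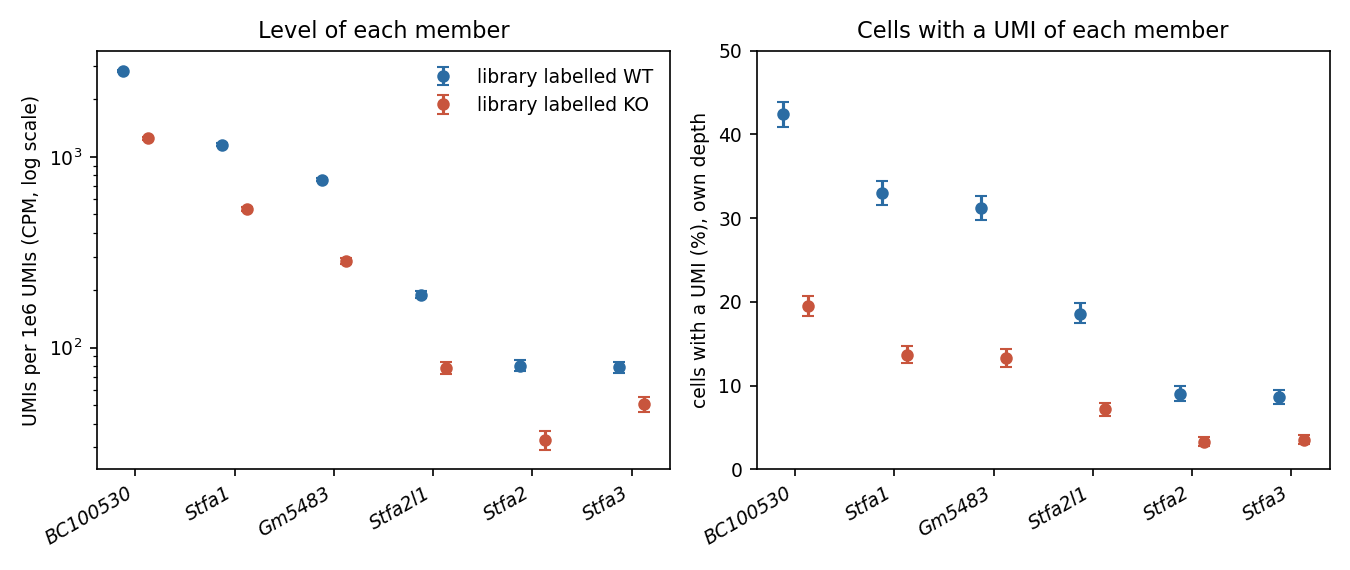
Level of each stefin A member in CPM on a log axis (left) and the share of cells with at least 1 UMI at each cell's own depth (right), with 95% counting intervals and 1 library per genotype. All 6 members lie lower in the KO-labelled library, from 2832 against 1254 CPM for *BC100530* to 79.0 against 50.4 CPM for *Stfa3*.

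Fewer cells of the KO-labelled library held a UMI of the family, and those that did held fewer. At least 1 member was found in 2239 of 4069 cells of the WT-labelled library (55.0%, 53.5 to 56.6%) and in 1114 of 4240 cells of the KO-labelled library (26.3%, 24.9 to 27.6%). Cells with a UMI of the family held on average 27.1 family UMIs in the WT-labelled library and 17.2 in the KO-labelled library, with medians of 8 and 4. Shares of cells move with depth, so cells were also thinned to an equal number of UMIs. At 1000 UMIs, which left out 141 and 658 shallower cells, the shares were 42.4% (40.8 to 43.9%) and 21.2% (19.9 to 22.6%). At 500 UMIs, which left out none, they were 35.8% (34.3 to 37.3%) and 16.8% (15.7 to 17.9%). The gap between the libraries in the share of cells was therefore present at equal depth.

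Among the single members, the share of cells with a UMI ran from 42.4% (*BC100530*) to 8.60% (*Stfa3*) in the WT-labelled library. In the KO-labelled library it ran from 19.5% (*BC100530*) to 3.25% (*Stfa2*). *BC100530* reached 274 UMIs in 1 cell and *Stfa1* 153, both in the WT-labelled library. *Stfa3*, by contrast, reached 16 UMIs in the WT-labelled library and 18 in the KO-labelled library.

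Several members were commonly found in the same cell. UMIs of 2 or more members were present in 1424 cells of the WT-labelled library (35.0%, 33.5 to 36.5%) and in 610 of the KO-labelled library (14.4%, 13.3 to 15.5%), and of 3 or more in 25.9% and 10.5%. All 6 were present in 94 cells (2.31%, 1.87 to 2.82%) and 33 cells (0.778%, 0.536 to 1.09%). Thinned to 1000 UMIs, the shares with 2 or more were 27.9% (26.5 to 29.3%) and 12.1% (11.1 to 13.2%). Of cells with any member, 63.6% (61.6 to 65.6%) held several in the WT-labelled library and 54.8% (51.8 to 57.7%) in the KO-labelled library. Cells with a single member mostly held a single UMI, 78.4% of 815 such cells and 81.2% of 504. In 48.0% and 50.6% of them that member was *BC100530*.

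**Figure D2:**
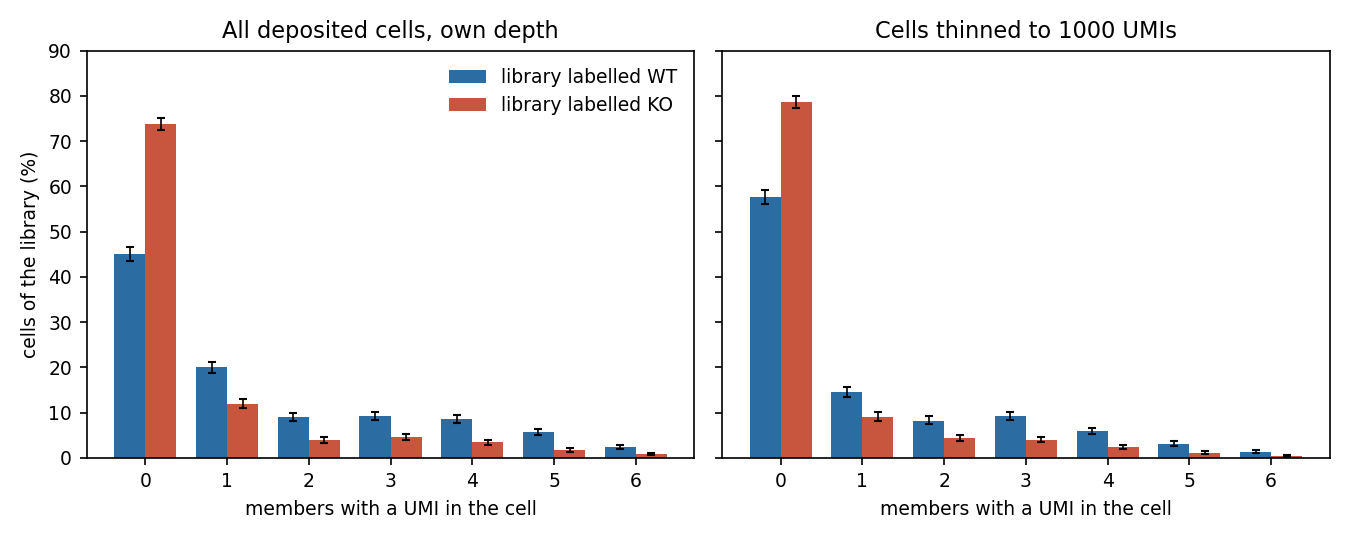
Share of cells (vertical axis, %) by the number of stefin A members with a UMI (horizontal axis), at own depth (left) and after thinning to 1000 UMIs (right), with exact 95% intervals. Cells with none made up 45.0% of the WT-labelled library and 73.7% of the KO-labelled library at own depth, and the share of cells with each number from 1 to 6 was lower in the KO-labelled library.

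The rarer members were mostly found in cells that also held *BC100530*. Of 367 cells with *Stfa2* in the WT-labelled library, 350 also held *BC100530* (95.4%, 92.7 to 97.3%), against 42.4% of all cells of that library. Of 138 such cells in the KO-labelled library, 126 did (91.3%, 85.3 to 95.4%), against 19.5% of all cells. For *Stfa3* the shares were 94.3% (91.3 to 96.5%) and 91.9% (86.3 to 95.7%). In the other direction, 20.3% and 15.3% of *BC100530* cells held *Stfa2*. Fewer of the *Stfa2* cells held *Stfa1*, 74.4% and 61.6%, and of the *Stfa3* cells 74.0% and 74.3% did. Of all cells, 33.0% and 13.7% held *Stfa1*. *Stfa1*, the near copy of *BC100530*, shared fewer of its cells with it, 78.5% (76.2 to 80.7%) and 74.1% (70.4 to 77.7%). Any other member was found in 97.5% and 92.8% of *Stfa2* cells, 94.6% and 90.4% of *Stfa2l1* cells, 88.5% and 85.8% of *Gm5483* cells, 83.8% and 79.3% of *Stfa1* cells and 77.3% and 69.1% of *BC100530* cells. The part of depth, and of runs shared between close copies, in these shares was not tested.

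**Figure D3:**
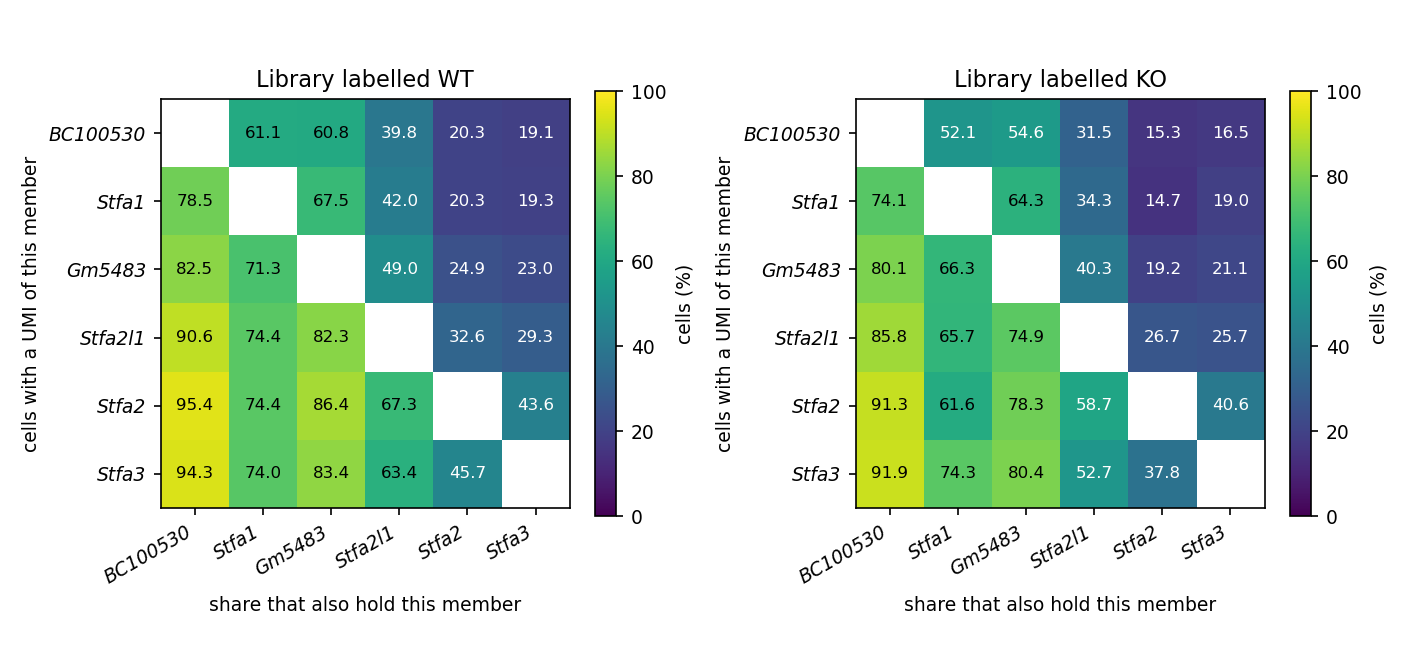
For cells with a UMI of the member in each row, the share (%) that also held the member in each column, in the WT-labelled library (left) and the KO-labelled library (right). The *BC100530* column is high in every row, from 78.5% to 95.4% and from 74.1% to 91.9%, and the *Stfa2* and *Stfa3* columns are low in the rows of the abundant members.

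The make-up of the family was similar in both libraries. *BC100530* gave 55.5% (55.1 to 55.9%) of family UMIs in the WT-labelled library and 56.2% (55.5 to 56.9%) in the KO-labelled library, and *Stfa1* gave 22.7% (22.4 to 23.0%) and 23.9% (23.3 to 24.5%). *Gm5483* took a smaller share in the KO-labelled library, 14.9% (14.6 to 15.2%) against 12.7% (12.3 to 13.2%), and *Stfa3* a larger one, 1.55% (1.45 to 1.65%) against 2.26% (2.05 to 2.48%). The make-up changed with the kind of cell. In cells almost free of secondary granule UMIs (0 to 4 per 1000), *Stfa1* gave 47.5% (45.5 to 49.4%) of family UMIs in the WT-labelled library and *BC100530* gave 35.7% (33.9 to 37.6%). In cells with 100 or more per 1000 the order was the opposite, 18.9% (18.5 to 19.4%) for *Stfa1* and 59.3% (58.8 to 59.8%) for *BC100530*. The library labelled KO showed the same shift for *Stfa1*, from 38.5% (35.2 to 41.9%) to 20.1% (19.3 to 20.9%), although there *BC100530* led in both kinds of cell. The shift lay mostly between these close copies, whose split is uncertain. *Gm5483* gave 13.2% and 14.6% in the WT-labelled library and 12.2% and 12.7% in the KO-labelled library. The granule-poor cells also held few family UMIs, 2550 and 838.

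The family was concentrated in few cells, and more so in the KO-labelled library. The 5% of cells with the most family UMIs held 47.7% of them in the WT-labelled library (204 cells) and 72.7% in the KO-labelled library (212 cells). The richest single cells held 512 and 282 family UMIs. The coefficient of variation of family UMIs across cells was 2.44 in the WT-labelled library and 3.92 in the KO-labelled library, and 2.40 and 3.85 after thinning to 500 UMIs, where the means were 3.13 and 1.10 UMIs per cell. Across cells with at least 1 thinned UMI the coefficients were closer, 1.19 and 1.29. *BC100530* had the lowest coefficient of the members in both libraries at own depth, 2.47 and 4.01, and *Stfa3* the highest, 4.53 and 7.70, although these values also move with the mean.

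The family followed the secondary granule genes across cells. Cells of at least 1000 UMIs were ordered by their thinned UMIs of *Ltf*, *Camp*, *Ngp*, *Lcn2*, *Cd177* and *Mmp8*. At 0 to 4 granule UMIs per 1000, the summed level of the family was 454.9 CPM (437 to 473) in the WT-labelled library and 252.7 CPM (236 to 270) in the KO-labelled library. It was 6426 CPM (6264 to 6590) and 2553 CPM (2441 to 2669) at 20 to 49 granule UMIs. In the WT-labelled library it was highest at 100 to 199 granule UMIs, with 13470 CPM (13320 to 13620), and lower again at 200 or more, with 10100 CPM (9760 to 10440). In the KO-labelled library the level was 5147 CPM (5033 to 5262) at 100 to 199 and 5923 CPM (5676 to 6179) at 200 or more. The class at 100 to 199 alone held 51.2% of the family UMIs of these cells in the WT-labelled library and 44.4% in the KO-labelled library.

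Within each of the 6 granule classes the summed level was lower in the KO-labelled library. The difference was smallest at 5 to 19 granule UMIs, a log2 ratio of -0.44 (-0.53 to -0.36), and largest at 50 to 99, with -1.83 (-1.89 to -1.77). The share of cells with a family UMI at 1000 UMIs was 18.5% (16.7 to 20.5%) and 6.74% (5.47 to 8.20%) at 0 to 4 granule UMIs and 67.1% (64.0 to 70.2%) and 39.0% (35.6 to 42.5%) at 100 to 199. The classes by secondary granule UMIs held 42.7% and 38.1% of cells at 0 to 4 and 23.1% and 21.7% at 100 to 199. Classes by the mature granulocyte list were less alike, and the class with 100 or more of those UMIs per 1000 held 18.2% of cells in the WT-labelled library and 6.37% in the KO-labelled library. The summed level in that class was 13230 and 9107 CPM, a log2 ratio of -0.54 (-0.59 to -0.49), against -1.47 (-1.51 to -1.44) at 50 to 99. Whether the class sizes took part in the difference over all cells was not tested.

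Single members did not all follow the sum. At 5 to 19 secondary granule UMIs *Stfa3* was higher in the KO-labelled library, with 23 UMIs (19.0 CPM, 12.1 to 28.5) against 42 (47.3 CPM, 34.1 to 64.0) and a log2 ratio of 1.31 (0.55 to 2.12). *Stfa2* in the same class (0.69, -0.34 to 1.75) and *Stfa3* at 0 to 4 (0.33, -0.52 to 1.15) also had log2 ratios above 0, but their intervals held 0. At 200 or more granule UMIs *Stfa1* differed least, with 1187 against 982.6 CPM, a log2 ratio of -0.27 (-0.48 to -0.063), and the interval of *Stfa3* held 0, with a log2 ratio of -0.34 (-0.83 to 0.15).

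**Figure D4:**
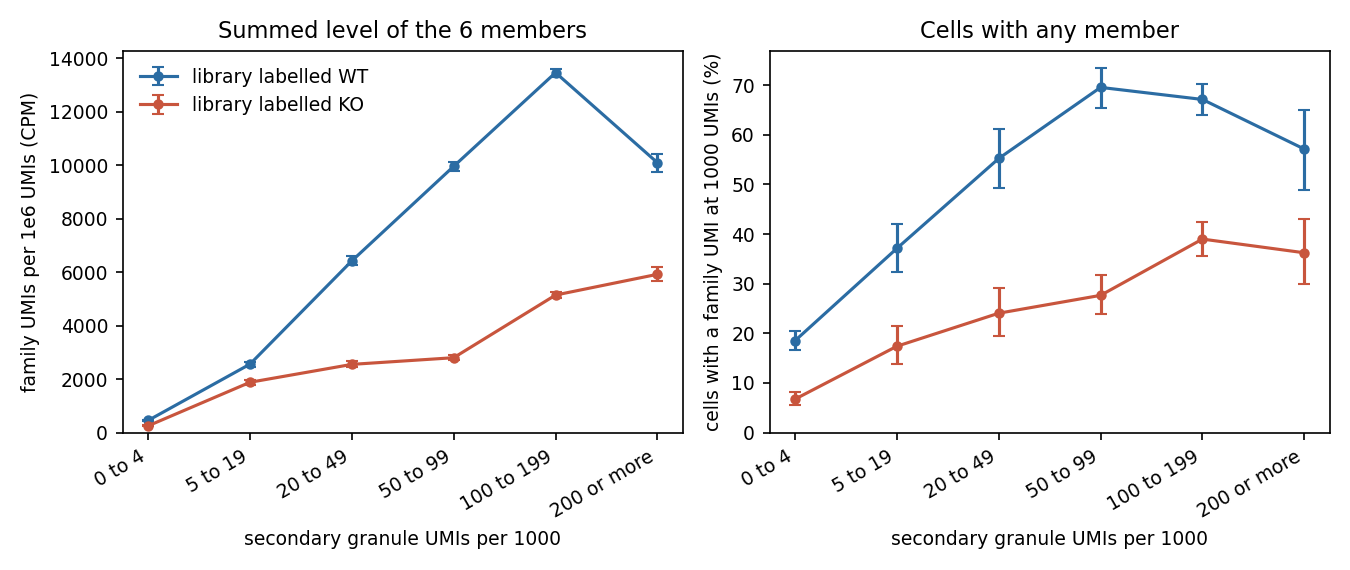
Summed level of the 6 members in CPM (left) and share of cells with a family UMI after thinning to 1000 UMIs (right), in cells grouped by secondary granule UMIs per 1000 (horizontal axis), with 95% counting intervals. In the WT-labelled library the level climbs from 454.9 CPM to 13470 CPM and then lies at 10100 CPM, and the KO-labelled library lies lower in each of the 6 classes.

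Other cell classes held less of the family. In cells with 3 or more UMIs per 1000 of the monocyte or macrophage list, the level was 743.7 CPM (700 to 789) in 620 cells of the WT-labelled library and 228.6 CPM (198 to 262) in 472 cells of the KO-labelled library, at median depths of 1894 and 1538 UMIs. A thinned family UMI was found in 17.3% (14.4 to 20.5%) and 6.78% (4.68 to 9.44%) of those cells. Few cells held 3 or more erythroid UMIs per 1000, 5 and 16, at median depths of 3918 and 3964 UMIs, and they had 1 and 3 family UMIs in all (51.3 and 46.0 CPM). The shares in granule-poor and monocyte-list cells were thus well under those in granule-rich cells, and shares near them are not read as expression. With the primary granule list the order was the opposite of that with the secondary granule list. Cells with no primary granule UMI had 13560 and 4694 CPM of the family, and cells with 20 or more had 1161 and 943.0 CPM. The progenitor and mitotic lists moved less with the family. Cells with and without a progenitor UMI had 3595 and 5531 CPM in the WT-labelled library and 1441 and 2408 CPM in the KO-labelled library. Cells with 3 or more mitotic UMIs had 5087 and 1628 CPM.

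The granule and mature granulocyte genes differed less between the libraries than the family, and in both directions. *Camp*, which encodes the cathelicidin peptide, was at 14990 CPM in the WT-labelled library and 14890 CPM in the KO-labelled library. *S100a8*, a calcium-binding protein of neutrophils, was at 19900 and 19910 CPM. *Ngp* was at 27550 and 36170 CPM and *Ltf*, lactoferrin, at 328.4 and 567.8 CPM, both higher in the KO-labelled library. *Lcn2*, lipocalin 2, was lower there, at 3524 and 2218 CPM (log2 ratio -0.67), as were *S100a9*, at 15110 and 11120 CPM (-0.44), *Mmp8*, at 89.3 and 74.2 CPM (-0.27), and *Mmp9*, at 115.6 and 67.7 CPM (-0.77). An exception in size was *Cxcr2*, a chemokine receptor of mature neutrophils, with 70 and 14 UMIs (5.89 and 1.63 CPM, log2 ratio -1.85). The mature granulocyte marker *Retnlg* went the other way, at 127.2 and 190.7 CPM (log2 ratio 0.58, 0.48 to 0.69). *G0s2* was at 96.0 and 85.8 CPM (-0.16), and the intervals of *Csf3r* (0.17) and *Il1b* (-0.25) held 0. Of the primary granule genes, *Prtn3* and *Ctsg*, which encode serine proteases, had log2 ratios of -0.44 and -0.50, and *Mpo* of 0.039. The 8 mature granulocyte markers summed to 35380 and 31400 CPM (log2 ratio -0.17). Whether fewer cells of a mature kind or less RNA per cell lowered the family cannot be told apart from the pooled sums.

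Granule-rich cells, those with 100 or more secondary granule UMIs per 1000, numbered 1061 in the WT-labelled library and 995 in the KO-labelled library, and their family UMIs ran from none to over 100 per 1000. Thinned to 1000 UMIs, 364 of them had no family UMI in the WT-labelled library (34.3%, 31.4 to 37.2%) and 613 in the KO-labelled library (61.6%, 58.5 to 64.6%). At own depth, 27.4% (24.8 to 30.2%) and 57.9% (54.8 to 61.0%) still had none, at median depths of 2208 and 1663 UMIs. The other cells were spread over the whole range. From 1 to 4 family UMIs were found in 16.7% and 15.9% of granule-rich cells, 5 to 9 in 11.03% and 6.63%, 10 to 19 in 13.5% and 7.24%, 20 to 39 in 12.8% and 5.83% and 40 or more in 11.7% and 2.81%, and the highest cells had 106 and 147. Some genes of a like mean were missing from fewer of these cells. In the WT-labelled library the family averaged 13.5 UMIs per 1000 and *Lcn2*, itself 1 of the 6 markers that chose the cells, 10.5, but 1.41% of cells had no *Lcn2* UMI. In the KO-labelled library the family averaged 5.02 and *Pglyrp1*, a granule protein that binds peptidoglycan, 5.34, but 2.21% of cells had no *Pglyrp1* UMI. *Anxa1*, of a lower mean, was missing from more cells, with a mean of 4.31 and 17.3% of cells at 0 in the WT-labelled library and 3.56 and 25.2% in the KO-labelled library. The coefficient of variation in these cells was 1.46 and 2.46 for the family and 0.57 in both libraries for *Pglyrp1*.

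**Figure D5:**
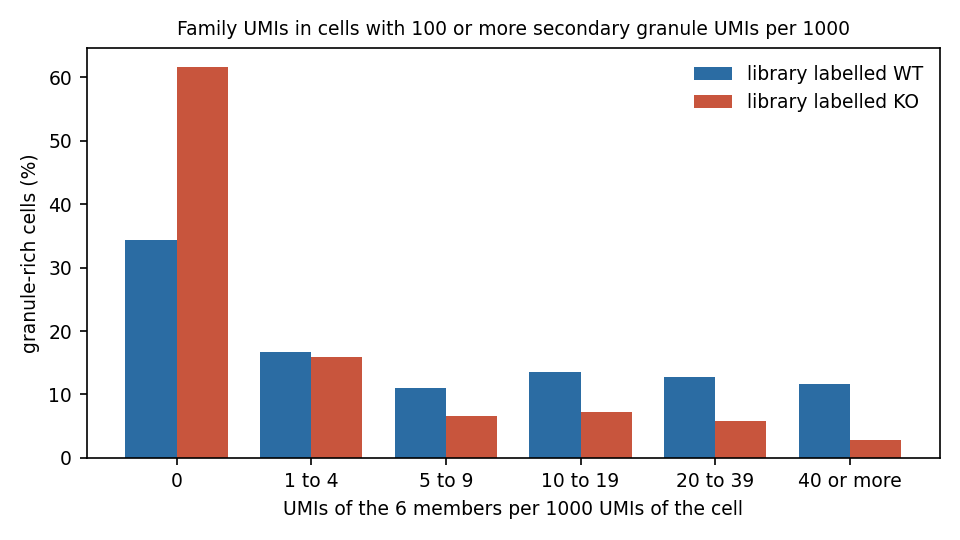
Share of granule-rich cells (vertical axis, %) by family UMIs per 1000 UMIs of the cell (horizontal axis), 1061 cells in the WT-labelled library and 995 in the KO-labelled library. Cells at 0 were the largest class, 34.3% and 61.6%, and the rest were spread over all classes, from 16.7% and 15.9% at 1 to 4 to 11.7% and 2.81% at 40 or more.

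Granule-rich cells with 5 or more family UMIs per 1000 were 49.01% (45.96 to 52.1%) of those in the WT-labelled library and 22.5% (19.95 to 25.2%) in the KO-labelled library, with medians of 19.5 and 15.5 family UMIs. They were set beside the cells at 0, a split made on the members themselves and after the values were seen. In the WT-labelled library, the 520 high cells averaged 16.2 UMIs of *BC100530*, 4.93 of *Stfa1*, 3.77 of *Gm5483*, 0.981 of *Stfa2l1*, 0.508 of *Stfa3* and 0.504 of *Stfa2*. These averages do not show that every high cell held each member. The 224 high cells of the KO-labelled library averaged 12.7, 3.90, 2.78, 0.710, 0.567 and 0.451 in the same order. High cells and cells at 0 were both chosen for 100 or more secondary granule UMIs per 1000. Similar sums of that list therefore follow in part from the choice. The mature granulocyte sum was lower in high cells than in cells at 0 in the WT-labelled library and higher in the KO-labelled library. Secondary granule UMIs averaged 151.9 and 158.5 per 1000 in the WT-labelled library and 166.9 and 164.3 in the KO-labelled library. Mature granulocyte UMIs averaged 93.7 and 109.7 in the WT-labelled library and 78.0 and 73.5 in the KO-labelled library. Of 1088 and 1090 other genes with at least 100 UMIs in these cells, none differed 3-fold or more in either direction. In the WT-labelled library the largest differences were those of *B230208H11Rik*, 2.48-fold higher in high cells, and *Gabarapl2*, 2.28-fold lower. Those of the KO-labelled library were *Retnlg*, 2.68-fold higher in high cells, *Crip1*, 2.54-fold lower, and *Mmp8*, a neutrophil protease, 2.41-fold higher. *Mmp9*, which is on the granulocyte lists as *Retnlg* and *Mmp8* are, was 2.34-fold higher there. In the WT-labelled library the next higher genes were *Nap1l1* (2.22-fold) and *Tipin* (2.13-fold), which are on none of the lists. Median depth was 2190 and 2202 UMIs in the WT-labelled library and 1812 and 1596 UMIs in the KO-labelled library.

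Cells with fewer than 500 detected genes differed more between the libraries than cells with 500 or more. In 203 such cells of the WT-labelled library the family stood at 19830 CPM (19250 to 20420), and in 695 of the KO-labelled library at 4222 CPM (4067 to 4381), a log2 ratio of -2.23 (-2.30 to -2.16). *BC100530* alone was at 11130 and 2407 CPM there. A family UMI was present in 68.5% (61.6 to 74.8%) and 30.5% (27.1 to 34.1%) of these cells. Mature granulocyte markers moved with this gap, at 127300 and 65160 CPM, whereas the secondary granule markers stood at 123700 and 129400 CPM. Erythroid markers stood at 4.48 and 4830 CPM, with a UMI in 1 and 13 cells. The part of either list was not tested. In cells with 500 or more genes the family stood at 4817 and 2066 CPM, a log2 ratio of -1.22 (-1.25 to -1.20).

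Cells with all 6 members were among the most granulocytic. In the WT-labelled library, the secondary granule sum was 29300 CPM in cells with no member, 30820 in cells with 1, 76090 in cells with 2 to 5 and 130600 in the 94 cells with 6. In the KO-labelled library it was 45150, 52760, 90870 and 115900 CPM. The primary granule sum in cells with none and with 6 was 15200 and 1671 CPM in the WT-labelled library and 12920 and 5057 CPM in the KO-labelled library. Their median depths, 1990 and 1965 UMIs, lay below that of cells with no member in the WT-labelled library (2410) and above it in the KO-labelled library (1600). They held a median of 90 and 117 family UMIs.

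The genes whose counts ranked cells most like the family were *S100a9*, *Camp*, *Ngp*, *S100a8*, *Lcn2*, *Pglyrp1*, *Tmsb4x*, *Anxa1*, *Fcnb* and *Pfn1*. They were ranked among 4140 genes by the mean over both libraries of Spearman's rho with the summed thinned family UMIs. For *S100a9* rho was 0.45 in 3928 cells of the WT-labelled library and 0.34 in 3582 cells of the KO-labelled library, and for *Camp* 0.48 and 0.30. *Anxa1*, annexin A1, had 0.26 and 0.20, and *Fcnb*, ficolin B, 0.28 and 0.13. Each value was lower in the KO-labelled library except that of *Pfn1*, 0.193 and 0.205. The members were closer to each other than to these genes where counts were high. *BC100530* had a rho with the sum of the other 5 of 0.77 and 0.69, *Gm5483* of 0.69 and 0.64 and *Stfa1* of 0.65 and 0.58, and the low counts of *Stfa3* gave 0.38 and 0.34. The cells of a library share its preparation, and these values describe those libraries.

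Other genes of the cluster on chromosome 16 were seen in the same cells at much lower levels. *BC117090* (*Cstdc6* in RefSeq) was at 16.3 CPM in the WT-labelled library and 5.94 CPM in the KO-labelled library, a log2 ratio of -1.46 (-1.93 to -1.01), and each of the 164 and 46 cells with it held a UMI of a family member (lower limits 97.8% and 92.3%). *2010005H15Rik* (*Csta2*) was at 15.1 and 13.05 CPM, a log2 ratio of -0.21 (-0.57 to 0.13), with a member in 95.3% and 88.3% of its cells. By contrast, cells with *Cstb* held a member in 54.3% and 29.0%, near the shares of all cells.

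The wider set of cystatins and cysteine proteases did not share the difference as a whole. Of 20 such genes, 12 had at least 200 UMIs, and 7 of these were higher and 5 lower in the KO-labelled library. Over all 6333 genes tested, 3220 were higher and 3113 lower, so the split of the whole set was near that of all genes. It differed by kind, with 4 of 5 cystatins lower (median log2 ratio -0.067) and 5 of 6 cathepsins higher (median 0.19). The cystatins included *BC117090* and *2010005H15Rik*, which are genes of the stefin A cluster. The median log2 ratio was 0.088 for the 12 and 0.0054 for all genes. *Cstb*, stefin B, was at 226.2 and 219.7 CPM, a log2 ratio of -0.042 (-0.13 to 0.043). *Cst3*, the secreted cystatin C, was at 940.0 and 897.1 CPM (log2 ratio -0.067), and *Cst7*, cystatin F of the endosomal pathway, at 33.3 and 35.9 CPM (log2 ratio 0.11). Of the proteases that stefins inhibit, *Ctsb* (cathepsin B) was at 484.7 and 552.4 CPM, *Ctsh* at 243.4 and 372.3 CPM, *Ctss* at 195.5 and 263.1 CPM and *Ctsz* at 366.7 and 384.4 CPM. *Ctsc*, which activates the serine proteases of primary granules, was at 130.9 and 149.2 CPM. *Ctsl* was the 1 cathepsin of 6 with a lower level in the KO-labelled library, 24.3 against 18.2 CPM (log2 ratio -0.42, -0.71 to -0.13). *Lgmn*, the asparaginyl protease legumain, was at 17.9 and 37.4 CPM, a log2 ratio of 1.06 (0.81 to 1.32). At least 1.5-fold higher were *Ctsh* and *Lgmn*, or 2 of 12, where 4.67% of all genes tested were. At least 1.5-fold lower was *BC117090*, 1 of 12, where 7.75% of all genes tested were. Neighbours of the cluster were counted as well, though their counts cannot show reads misplaced between close copies. *Gm15845*, an antisense gene overlapping *BC100530*, had 5 and 2 UMIs, *Casr* had none in either library, and *Ccdc58* was at 24.5 and 27.0 CPM.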

How the data were processed

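Single-cell libraries were prepared from 1 pool of leukemias per genotype with a 10x Genomics 3′ kit. The values deposited by the authors were raw counts (UMIs per gene and cell) from Cell Ranger, version 1.3.1 per the labels, for mm10, in 1 matrix of both libraries with no normalization. The labels do not say which barcode suffix is which genotype. Suffix 1 was taken as KO from the study's published analysis code, which calls those cells Cre-positive, and from the Cre status of each genotype in the labels, hence "labelled". Whether counting used strand is not given in the sources used here.

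The members and lists were chosen with earlier results of these data known, and granule classes, the split of granule-rich cells and motifs after values were seen. The genes named were the 6 members, cystatins and cathepsins with 200 or more UMIs, marker lists with their defining genes, the 10 genes ranked most like the family among those in at least 5% of cells, and *Kat2a*. Others, such as *B230208H11Rik*, were chosen after their values were seen. Levels were summed UMIs per 1e6 UMIs, with exact Poisson intervals. Shares had exact Clopper-Pearson intervals, and log2 ratios exact intervals from the binomial split of counts. No test was made, with 1 library per genotype. Cells were thinned without replacement to 1000 or 500 UMIs. Doublets were not called. The cells with most UMIs were left out as an alternative. Other alternatives were limits on genes per cell, matched depth and other totals. Python 3.11.15, numpy 2.4.6, scipy 1.17.1 and pandas 2.3.3 were used. Intervals were tested on simulated Poisson counts, the model they assume. Their coverage for counts as uneven between cells as these was not tested.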

Additional observations from a re-analysis of the deposited data

How the results depend on the processing

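No paired analysis was possible because each genotype had 1 library. Of 66 values of the main results under the alternatives, 25 stayed within their counting interval, 41 moved beyond it and none reversed. Of 54 for single members, 21 stayed, 32 moved and 1 reversed, the log2 ratio of *Stfa3* in cells with 1000 or more genes (0.068). The family log2 ratio (-1.19) was -1.22 in cells with 500 or more genes, -1.51 and -1.52 thinned to 1000 and 500 UMIs, -1.42 matched on total UMIs, -1.27 without the 10 richest cells, -1.33 without the 5% of cells with most UMIs and -0.83 in cells with 1000 or more genes. The causes of these moves were not tested. Cells with any member were 42.4% and 21.2% thinned to 1000 UMIs, 35.8% and 16.8% at 500, 27.8% in the KO-labelled library when matched and 35.3% there in cells with 1000 or more genes. Cells with 2 or more members were 27.9% and 12.1% thinned to 1000, 22.9% and 9.36% at 500, 15.5% in the KO-labelled library when matched, and 32.1% and 20.02% in cells with 1000 or more genes. Family UMIs per cell with any, in the WT- and KO-labelled libraries, were 26.8 and 18.2 with 500 or more genes, 14.7 and 10.3 thinned to 1000, 8.75 and 6.53 thinned to 500, 26.3 and 19.1 matched, 25.6 and 15.5 without the 10 richest cells and 27.5 and 16.04 without the 5% with most UMIs. The thinned values are lower because fewer UMIs were drawn. The share of *BC100530* was 56.5% thinned to 1000 in the WT-labelled library and 57.1% without the 10 richest cells in the KO-labelled library. The top 5% of cells held 49.4% and 75.2% with 500 or more genes, 48.1% thinned to 1000 in the WT-labelled library, and 49.1% and 73.4% thinned to 500. The log2 ratio in granule-rich cells (-1.30) was -1.24 with 500 or more genes, and that under 500 genes was -2.34 with totals that left out the members and the 20 leading genes. Depth limits the rare members most. In the KO-labelled library only 138 cells held *Stfa2* and 148 *Stfa3*, fewer than the 212 cells of a top 5%, so a top 5% share says nothing for them.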
